A study of Mus musculus with 15 samples.

Results

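The genes described here are 42 genes of the cell cycle and DNA replication, out of 19938 genes measured in epithelium detached from the mouse small intestine. They were taken from a list of 43 named genes by one rule: presence on the array as a probe set with a single gene symbol, with the brightest probe set kept for each gene. Ccnb1, which encodes cyclin B1, had no such match and was not analysed here. Of the 42 genes, 18 act at the start or during S phase, 21 act in mitosis and 3 (Ccnd1, Ccnd2 and Cdk4) act earlier, in G1. The series compared wild-type BALB/c mice of 10 weeks that received no RANKL with mice of the same strain, genotype and age given GST-RANKL, a fusion of the TNF-family cytokine RANKL with glutathione S-transferase. It was injected into the peritoneum 2 times a day for 1, 2, 3 or 4 days. Each of the 5 groups has 3 Affymetrix arrays of total RNA, from cells released with 30 mM EDTA over 10 min and peeled off with needles. No group received GST or vehicle alone, so an effect of GST or of injection and one of RANKL cannot be told apart. Nothing in the labels says that replicate arrays are different animals, and p-values here measure only the spread between these samples, which may be technical.

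Division in this epithelium takes place in the crypts, where stem cells and their transit-amplifying daughters cycle before they leave the cycle and move onto the villi. In G1, D-type cyclins with Cdk4 inactivate the retinoblastoma protein, which frees E2F factors to switch on S phase genes. Licensing proteins load the Mcm helicase on DNA, cyclin E with Cdk2 helps to start replication, and the mitotic genes are switched on later, largely through B-Myb, FoxM1 and the MuvB complex at CHR and CCAAT elements. In this tissue RANKL is best known as the signal that makes M cells, which sample particles from the gut lumen.

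Array medians of the deposited intensity lay between 147 and 167. RANKL day 1 replicate 2 had the highest median and a log2 interquartile range of 1.95, where every other array had 2.26 to 2.55. All values below are log2 intensity after quantile normalization, so a difference of 1 is a doubling. The 7 measured epithelial markers, Epcam and Cdh1 among them, averaged 11.78 to 12.10 on every array. Background was read from 3 genes of the Y chromosome, which lay between 4.88 and 5.50 while Xist was at 11.93 or above on all arrays. No member had a group mean in that range, and the lowest was Gins1 at 5.85 in controls. Because the samples are bulk tissue, fewer cells of a type and less RNA per cell cannot be told apart. The term "called" below means an adjusted p under 0.05 (limma, Benjamini-Hochberg over all genes of a comparison).

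The promoters of 31 of the 42 genes are in the RefSeq promoter table for mouse build GRCm38.p6, which covers 250 bases before to 50 bases after each gene start. A few are printed because S phase and mitotic genes are known to carry different elements in this stretch. Those of Mcm2 (chr6:88898781-88899030, minus strand), Mcm6 (chr1:128359706-128359955, minus strand) and Rrm2 (chr12:24708004-24708253, plus strand) stand for S phase genes. Those of Top2a (chr11:99024190-99024439, minus strand), Mki67 (chr7:135716380-135716629, minus strand) and Kif11 (chr19:37376132-37376381, plus strand) stand for mitotic genes. Cdk4 (chr10:127063285-127063534, plus strand) is the G1 gene with an entry. Each line gives the 250 bases before the gene start, 5′ to 3′ on the gene's strand. Capitals mark matches to an E2F motif (TTTCCCGC, TTTGGCGC, TTTCGCGC or TTTGCCGC), a CHR motif (TTTGAA or TTCGAA) or a CCAAT box (CCAAT), each searched on both strands, and overlapping matches run together.
Mcm2 promoter: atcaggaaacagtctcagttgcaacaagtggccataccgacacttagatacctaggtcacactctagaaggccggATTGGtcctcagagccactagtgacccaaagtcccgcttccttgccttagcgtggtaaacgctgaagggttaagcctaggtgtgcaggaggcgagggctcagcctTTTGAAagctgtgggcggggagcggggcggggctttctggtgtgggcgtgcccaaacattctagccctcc
Mcm6 promoter: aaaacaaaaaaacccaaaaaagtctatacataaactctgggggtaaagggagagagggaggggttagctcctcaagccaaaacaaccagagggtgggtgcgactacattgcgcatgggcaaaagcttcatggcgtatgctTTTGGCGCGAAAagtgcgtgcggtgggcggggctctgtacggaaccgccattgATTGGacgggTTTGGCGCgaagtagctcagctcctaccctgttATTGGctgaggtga
Rrm2 promoter: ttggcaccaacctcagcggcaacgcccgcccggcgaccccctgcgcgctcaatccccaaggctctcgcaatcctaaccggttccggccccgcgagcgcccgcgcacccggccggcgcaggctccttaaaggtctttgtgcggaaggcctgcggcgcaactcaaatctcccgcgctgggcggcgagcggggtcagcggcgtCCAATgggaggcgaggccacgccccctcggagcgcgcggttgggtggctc
Top2a promoter: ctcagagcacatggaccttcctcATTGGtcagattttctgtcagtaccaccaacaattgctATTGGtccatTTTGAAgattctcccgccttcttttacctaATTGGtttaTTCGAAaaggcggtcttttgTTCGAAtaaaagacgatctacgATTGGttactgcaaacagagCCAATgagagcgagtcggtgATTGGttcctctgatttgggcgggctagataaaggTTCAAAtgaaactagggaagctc
Mki67 promoter: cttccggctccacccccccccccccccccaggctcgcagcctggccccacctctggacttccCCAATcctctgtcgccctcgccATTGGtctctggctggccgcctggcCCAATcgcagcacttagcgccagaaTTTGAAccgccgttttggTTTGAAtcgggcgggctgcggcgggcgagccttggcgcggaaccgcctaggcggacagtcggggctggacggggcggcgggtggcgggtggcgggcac
Kif11 promoter: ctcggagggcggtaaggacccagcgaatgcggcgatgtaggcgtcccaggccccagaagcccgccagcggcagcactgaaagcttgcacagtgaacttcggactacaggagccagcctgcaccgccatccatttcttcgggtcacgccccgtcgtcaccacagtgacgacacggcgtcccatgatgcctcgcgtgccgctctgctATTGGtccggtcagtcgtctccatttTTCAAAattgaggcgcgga
Cdk4 promoter: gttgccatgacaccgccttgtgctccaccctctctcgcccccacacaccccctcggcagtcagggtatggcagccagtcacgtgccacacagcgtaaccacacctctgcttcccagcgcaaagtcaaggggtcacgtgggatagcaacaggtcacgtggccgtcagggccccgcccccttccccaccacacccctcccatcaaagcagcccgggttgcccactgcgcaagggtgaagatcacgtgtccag

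Over the whole 300-base window, an E2F motif was found in 7 of 14 S phase promoters with an entry (50%) and in 1 of 16 mitotic promoters (6.25%), that of Cdk1. Among all 27025 genes of the table the share was 2.61%. The E2F motif stood in the promoters of Mcm3, Mcm5, Mcm6, Mcm7, Cdc6, Cdt1 and Cdk2. Of the printed S phase promoters, those of Mcm2 and Rrm2 held no E2F motif. A CHR motif was found in 13 of 16 mitotic promoters (81.3%) and in 2 of 14 S phase promoters (14.3%), against 21.7% of all genes. The S phase promoters with a CHR motif were those of Mcm2, which is printed, and Mcm7. A CCAAT box was found in 14 mitotic promoters (87.5%) and 9 S phase promoters (64.3%), against 41.1% of all genes. The printed Cdk4 stretch holds none of these letters. A match describes the letters in the window and is not evidence of binding, and a missing match says nothing about the factors.

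Few of these genes passed the test against control, and those that did were higher with RANKL. On day 1 Mcm2 and Cdk4 were called, 2 of 42 members, where 3.94% of all genes were called and 2% were called higher. On day 2 no member was called, where 2.57% of all genes were. On day 3 Mcm2 and Rrm2 were called, again 2 of 42, where 2.96% of all genes were called and 1.72% were called higher. With the replicate number as a block, a fit in which same-numbered arrays are paired, 4 members were called on day 3: Mcm2, Rrm2, Rrm1 (limma, adjusted p = 0.0298) and Cdk4 (adjusted p = 0.037). Of all 19938 genes, 712 were called on day 3 with this block. Without the block, no member was called on day 4, where 0.908% of all genes were. By limma's unadjusted p under 0.05, 5, 3, 24 and 2 members passed on days 1 to 4, beside 14.9%, 11.9%, 16.2% and 9.66% of all genes. An F test over the 4 days called Rrm2 (adjusted p = 0.0319) and Mcm2 (adjusted p = 0.0481), where 3.6% of all genes were called. These 4 comparisons share the same 3 control arrays.

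The differences from control lay mostly above 0, and widest on day 3, but the day 1 count moved with single arrays. The difference was above 0 for 31, 36, 40 and 30 of 42 members on days 1 to 4, where 48.2%, 43.3%, 46.8% and 52.1% of all genes were above 0. These counts are 28, 37, 40 and 39 after median centring in place of quantile normalization, with the largest move on day 4. Without day 1 replicate 1 the day 1 count was 20 of 42, and without day 1 replicate 2 it was 39. Over the settings that leave out 1 array the count ranged from 29 to 40 on day 2, 37 to 40 on day 3 and 26 to 39 on day 4. On day 1, 37, 13 and 32 members lay above the control mean on replicates 1, 2 and 3. Leaving out day 1 replicate 1 moved the S phase count from 14 to 13 of 18 and the mitotic count from 14 to 5 of 21. The median difference over the members was 0.10, 0.18, 0.38 and 0.10. All 3 RANKL arrays lay above all 3 controls for 4 members on day 1 (6.08% of all genes), 2 on day 2 (8.09%), 23 on day 3 (12.3%) and 9 on day 4 (12.1%). The 4 of day 1 were Mcm2, Mcm5, Rrm2 and Cdk4, and the 2 of day 2 were Cdc6 and Rrm2. The 23 of day 3 were 11 S phase genes, 11 mitotic genes and Cdk4. Ccne2 lay below all controls on days 2 and 3, where 9.44% and 9.9% of all genes did, and it was the only member to do so on those days. After median centring no member lay below all controls on day 3, while 1 did on day 2.

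**Figure D1:**
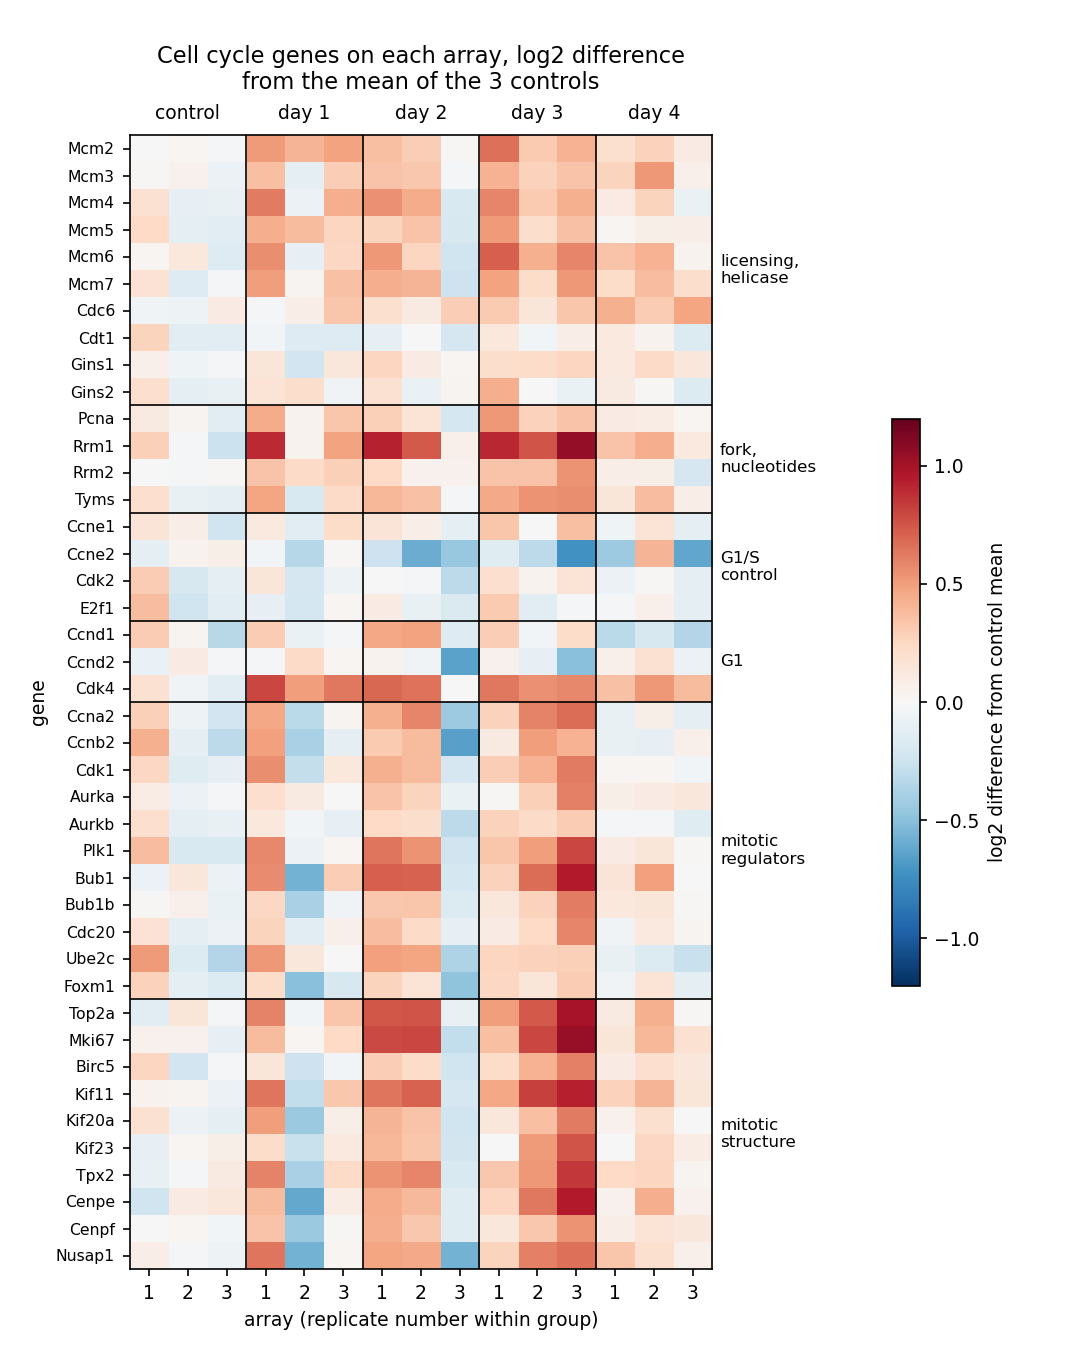
Each row is 1 of the 42 genes and each column 1 of the 15 arrays; colour is the log2 difference from the mean of the 3 control arrays, grouped by role. RANKL day 1 replicate 2 and day 2 replicate 3 are pale or below control for the mitotic genes, while the 3 day 3 arrays are above control for all 21.

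Among the licensing and helicase genes, the subunits of the Mcm ring stood highest on day 3. Mcm2 (probe set 10546163), one of the 6 ring subunits, read 8.25, 8.27 and 8.23 in controls and 8.76, 8.66 and 8.73 on day 1. It read 8.61, 8.55 and 8.26 on day 2, then 8.91, 8.56 and 8.67 on day 3, and 8.44, 8.53 and 8.34 on day 4. Every array of days 1, 3 and 4 lay above the highest control, and day 2 replicate 3 fell within the control range. Mcm2 rose by 0.47 ± 0.10 (SE, n = 3 arrays per group; 1.38-fold) on day 1, with an adjusted p of 0.0176 (limma). On day 3 it rose by 0.46 (95% interval 0.25 to 0.68; limma, adjusted p = 0.0253). On day 2 it differed by 0.22 (interval 0.01 to 0.44; adjusted p = 0.393), and on day 4 by 0.19 (interval -0.03 to 0.40; adjusted p = 0.611). The day 1 call was lost at an adjusted p of 0.0619 without day 1 replicate 1, 0.0529 without day 1 replicate 3, 0.0515 without control 1 and 0.0667 without control 3. It was also lost as deposited (0.0752), with median centring (0.191) and with the 2 groups fitted alone (0.0502). The day 3 call of Mcm2 was lost without day 3 replicate 1 (0.0822), day 3 replicate 3 (0.0789) or control 1, 2 or 3 (0.0696, 0.0637 and 0.087), with median centring (0.0938) and with the 2 groups alone (0.0555).

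Mcm6 (probe set 10357436), another ring subunit, showed the largest difference of the licensing list. It read 8.06, 8.16 and 7.88 in controls, then 8.59, 7.93 and 8.28 on day 1 and 8.55, 8.29 and 7.79 on day 2. It read 8.75, 8.46 and 8.62 on day 3, all above the controls, and 8.37, 8.45 and 8.07 on day 4. The day 3 difference was 0.58 ± 0.19 (interval 0.17 to 0.98; limma, adjusted p = 0.131), which missed the threshold. The other ring subunits Mcm3, Mcm4, Mcm5 and Mcm7 differed by 0.34 to 0.44 on day 3, and none of them was called. Cdc6, which loads the ring on origins with Cdt1, differed by 0.13, 0.20, 0.26 and 0.40 on days 1 to 4. Its adjusted p on day 4 was 0.0765 (limma). In the main fit it was called on no day and in no comparison between days. Cdt1 differed by -0.12, -0.10, 0.06 and -0.00 on the same days. Gins1 and Gins2, parts of the GINS complex that joins the ring to form the active helicase, reached 0.23 and 0.12 on day 3.

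Of the genes of the replication fork and nucleotide supply, Rrm1 had the widest difference on day 3, and only Rrm2 was called. Both encode subunits of ribonucleotide reductase, the enzyme that makes deoxyribonucleotides. Rrm2 (probe set 10394978), the small subunit, read 7.89, 7.87 and 7.90 in controls, 8.23, 8.12 and 8.18 on day 1, and 8.13, 7.94 and 7.94 on day 2. It read 8.23, 8.23 and 8.43 on day 3 and 7.97, 7.96 and 7.69 on day 4, so that the arrays of days 1 to 3 lay above all controls and those of day 4 on both sides. Rrm2 rose by 0.41 ± 0.09 on day 3 (1.33-fold; limma, adjusted p = 0.0224). That call was lost without day 3 replicate 3 (0.117) or control 1, 2 or 3 (0.0606, 0.0671 and 0.0714), and with median centring (0.0609). On day 1 the difference of Rrm2 was 0.29 (interval 0.10 to 0.48; adjusted p = 0.0922), and on day 4 it was -0.01 (adjusted p = 0.976).

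Rrm1 (probe set 10555695), the large subunit, gave the widest difference of all members. It read 8.58, 8.28 and 8.04 in controls, 9.20, 8.35 and 8.78 on day 1, and 9.23, 9.04 and 8.37 on day 2. It read 9.21, 9.06 and 9.35 on day 3 and 8.64, 8.74 and 8.42 on day 4. The day 3 arrays lay together above the controls, whereas days 1, 2 and 4 each had at least 1 array inside the control range. The day 3 difference was 0.90 ± 0.23 (1.87-fold, interval 0.41 to 1.40), just short of the threshold at an adjusted p of 0.0522 (limma), and past it at 0.0298 with the replicate block. Tyms, which makes thymidylate, differed by 0.52 on day 3 (limma, adjusted p = 0.0953). Pcna (probe set 10487930), the sliding clamp of the polymerases, read 10.07, 10.00 and 9.82 in controls and 10.41, 10.01 and 10.30 on day 1. Its readings were 10.25, 10.12 and 9.75 on day 2, 10.48, 10.24 and 10.31 on day 3, and 10.06, 10.05 and 9.98 on day 4. Only the day 3 arrays all exceeded the controls, by 0.38 ± 0.13 (limma, adjusted p = 0.141). A second Pcna probe set gave 0.29, 0.09, 0.40 and 0.08 on days 1 to 4, close to the 0.28, 0.08, 0.38 and 0.07 of the first.

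The 4 G1/S control genes had a median difference of 0.10 on day 3, beside 0.35 for the licensing list and 0.47 for the fork list. Ccne2 (probe set 10503264), encoding cyclin E2, was the member with the lowest difference on days 2 and 3. It read 7.55, 7.71 and 7.74 in controls, 7.64, 7.33 and 7.68 on day 1, and 7.42, 7.07 and 7.22 on day 2. It read 7.53, 7.35 and 6.94 on day 3 and 7.23, 8.07 and 7.04 on day 4. Days 2 and 3 lay below all controls, and day 4 was spread over more than the control range. The difference was -0.43 (interval -0.91 to 0.04; limma, adjusted p = 0.491) on day 2 and -0.39 (interval -0.87 to 0.08; adjusted p = 0.428) on day 3. Its paralog Ccne1 differed by 0.23 on day 3, and its partner Cdk2 by 0.14. E2f1, a factor that activates S phase genes, differed by -0.10, -0.05, 0.06 and -0.02 on days 1 to 4. None of the 4 was called.

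Of the G1 genes, Cdk4 (probe set 10366814), the kinase partner of D cyclins, was the one that passed the test, on day 1. It read 10.57, 10.34 and 10.25 in controls and 11.19, 10.89 and 11.02 on day 1. Its readings were 11.07, 11.03 and 10.39 on day 2, 11.01, 10.94 and 10.96 on day 3, and 10.74, 10.90 and 10.76 on day 4. All arrays of days 1, 3 and 4 exceeded all controls, and on day 2 replicate 3 fell among them. Cdk4 rose by 0.65 ± 0.15 on day 1 (1.56-fold, interval 0.32 to 0.97; limma, adjusted p = 0.0286). On day 3 the difference was 0.59 (interval 0.26 to 0.91; adjusted p = 0.0571, or 0.037 with the replicate block), on day 2 it was 0.45 (adjusted p = 0.186) and on day 4 it was 0.42 (adjusted p = 0.357). The day 1 call was lost without day 1 replicate 1 (0.11), day 1 replicate 3 (0.0692), control 2 (0.0884) or control 3 (0.124). The same call of Cdk4 was lost as deposited (0.0695), with median centring (0.156) and with the 2 groups alone (0.0628).

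Neither Ccnd1 nor Ccnd2, the members that encode D cyclins, which activate Cdk4, was called on any day. Ccnd1 (probe set 10569646) read 10.51, 10.24 and 9.87 in controls, 10.51, 10.12 and 10.19 on day 1, and 10.67, 10.69 and 10.05 on day 2. It read 10.50, 10.18 and 10.42 on day 3 and 9.88, 10.02 and 9.85 on day 4. The groups overlapped on every day, with differences of 0.07, 0.27, 0.16 and -0.29 (day 4 interval -0.68 to 0.10). Ccnd2 (probe set 10548105) read 10.25, 10.43 and 10.31 in controls, 10.32, 10.56 and 10.35 on day 1, and 10.37, 10.28 and 9.68 on day 2. It read 10.38, 10.23 and 9.83 on day 3 and 10.39, 10.51 and 10.26 on day 4. Replicate 3 was the lowest array of Ccnd2 on days 2, 3 and 4, and no group lay clear of the controls. The differences of Ccnd2 were 0.08, -0.22, -0.18 and 0.06.

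**Figure D2:**
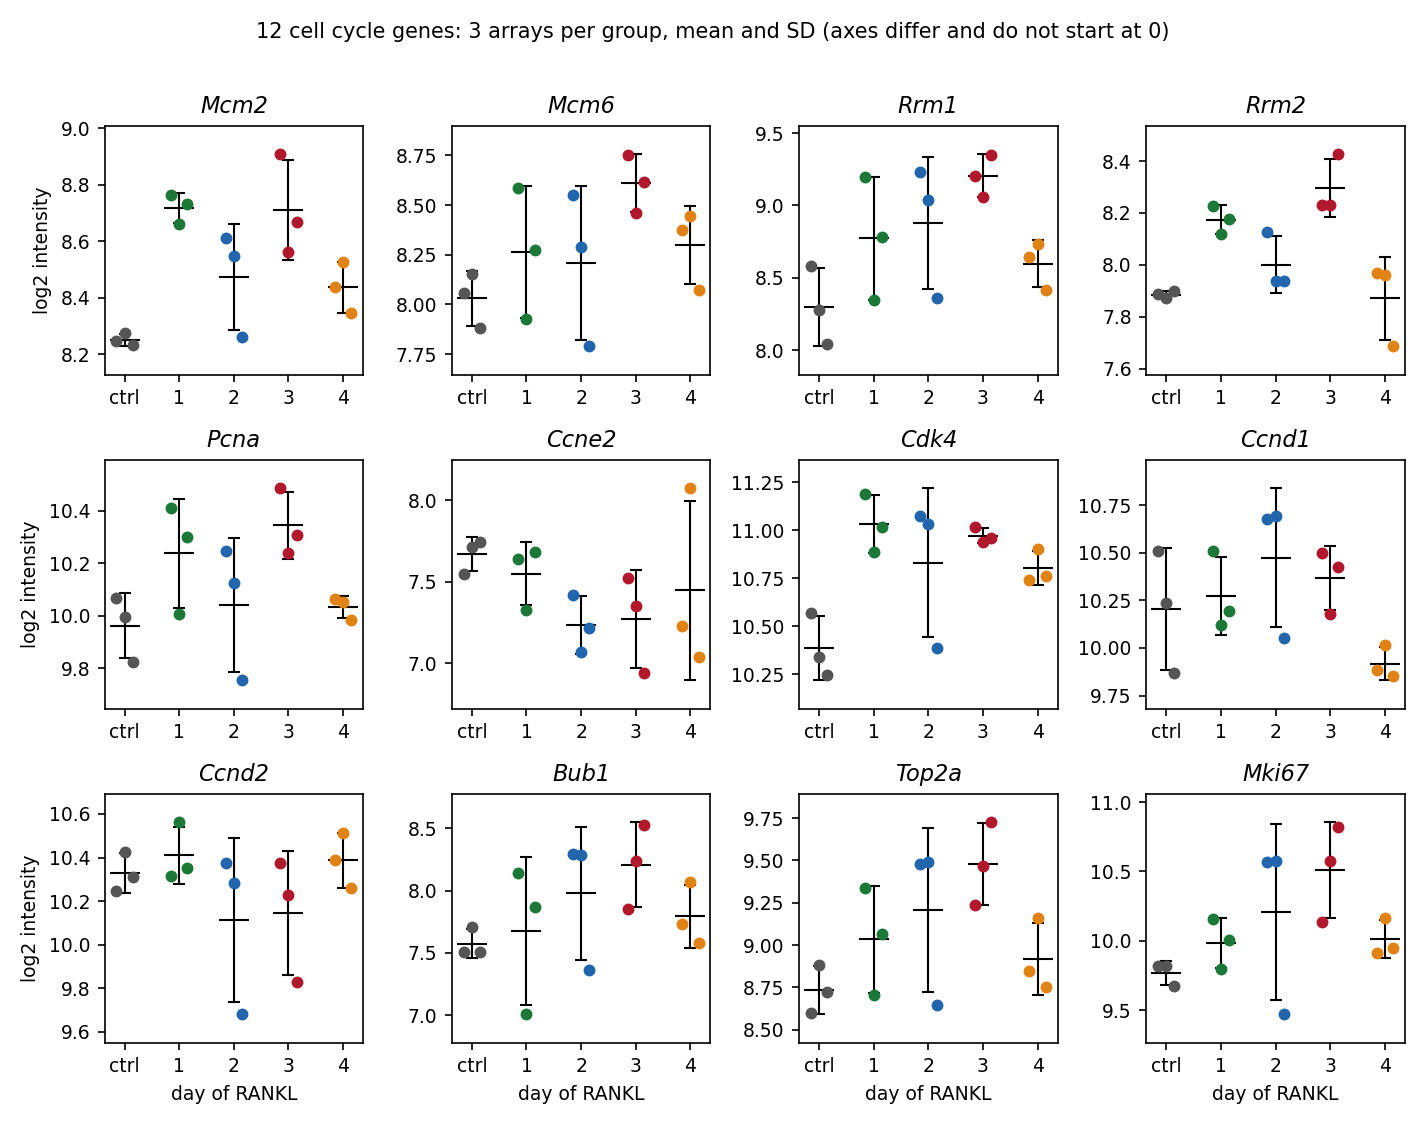
Log2 intensity on every array for the 12 genes given array by array, with 1 panel per gene; points are arrays, long bars are group means, and error bars are the SD. Mcm2, Rrm2 and Cdk4 show day 1 arrays above every control, Ccne2 lies below control on days 2 and 3, and Mki67, Top2a and Bub1 are low on day 2 replicate 3.

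None of the 21 mitotic genes was called against control on any day, and they were spread more widely between arrays than the S phase genes. On day 3 all 21 had a difference above 0, and 11 of them had every RANKL array above every control. No mitotic gene was separated in that way on days 1 and 2, and 3 (Mki67, Kif11 and Cenpf) were on day 4. By limma's unadjusted p under 0.05, 0, 0, 11 and 0 of the 21 passed on days 1 to 4. The pooled SD between arrays of a group was 0.17 to 0.41 (median 0.30) for single mitotic genes, 0.10 to 0.32 (median 0.18) for S phase genes and a median of 0.13 over all genes.

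Mitotic regulators had a median difference of 0.34 on day 3. Bub1 (probe set 10487480), a kinase of the spindle checkpoint, had the largest of that list. It read 7.51, 7.71 and 7.51 in controls, 8.14, 7.01 and 7.87 on day 1, and 8.29, 8.29 and 7.36 on day 2. It read 7.85, 8.24 and 8.53 on day 3 and 7.73, 8.07 and 7.58 on day 4. On days 1 and 2, 2 arrays were above every control and 1 array was below every control. The day 3 difference of Bub1 was 0.63 ± 0.29 (interval 0.01 to 1.26; limma, adjusted p = 0.303). Plk1, a kinase of mitotic entry and spindle assembly, differed by 0.54 on day 3, Ccna2 (cyclin A2) by 0.51 and Cdk1, the kinase that drives mitotic entry, by 0.44. Foxm1, a factor that activates mitotic genes, differed by -0.16, -0.02, 0.23 and 0.00 on days 1 to 4.

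The genes of chromosome and spindle structure had the widest median difference of the 6 role lists on day 3, 0.54. Top2a (probe set 10390707), the topoisomerase that untangles sister chromatids, read 8.60, 8.88 and 8.72 in controls, 9.33, 8.70 and 9.07 on day 1, and 9.48, 9.49 and 8.65 on day 2. It read 9.24, 9.47 and 9.72 on day 3 and 8.85, 9.16 and 8.75 on day 4. All day 3 arrays of Top2a exceeded the controls, and day 2 replicate 3 fell among them. The day 3 difference was 0.74 ± 0.22 (1.67-fold, interval 0.27 to 1.21; limma, adjusted p = 0.0917). A second Top2a probe set, with a mean of 5.57 near the background, gave 0.29 on day 3. Mki67 (probe set 10568714), encoding the proliferation marker Ki-67, read 9.82, 9.82 and 9.67 in controls, 10.15, 9.79 and 10.01 on day 1, and 10.57, 10.57 and 9.47 on day 2. It read 10.13, 10.57 and 10.82 on day 3 and 9.91, 10.17 and 9.95 on day 4. The day 3 and day 4 arrays of Mki67 lay above all controls, and day 2 replicate 3 lay below them. The differences of Mki67 were 0.43 on day 2 (interval -0.09 to 0.96), 0.74 ± 0.24 on day 3 (interval 0.21 to 1.26; limma, adjusted p = 0.136) and 0.24 on day 4. Kif11, a kinesin that pushes spindle poles apart, differed by 0.74 on day 3 (limma, adjusted p = 0.129), and Cenpe, a kinetochore kinesin, by 0.62.

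**Figure D3:**
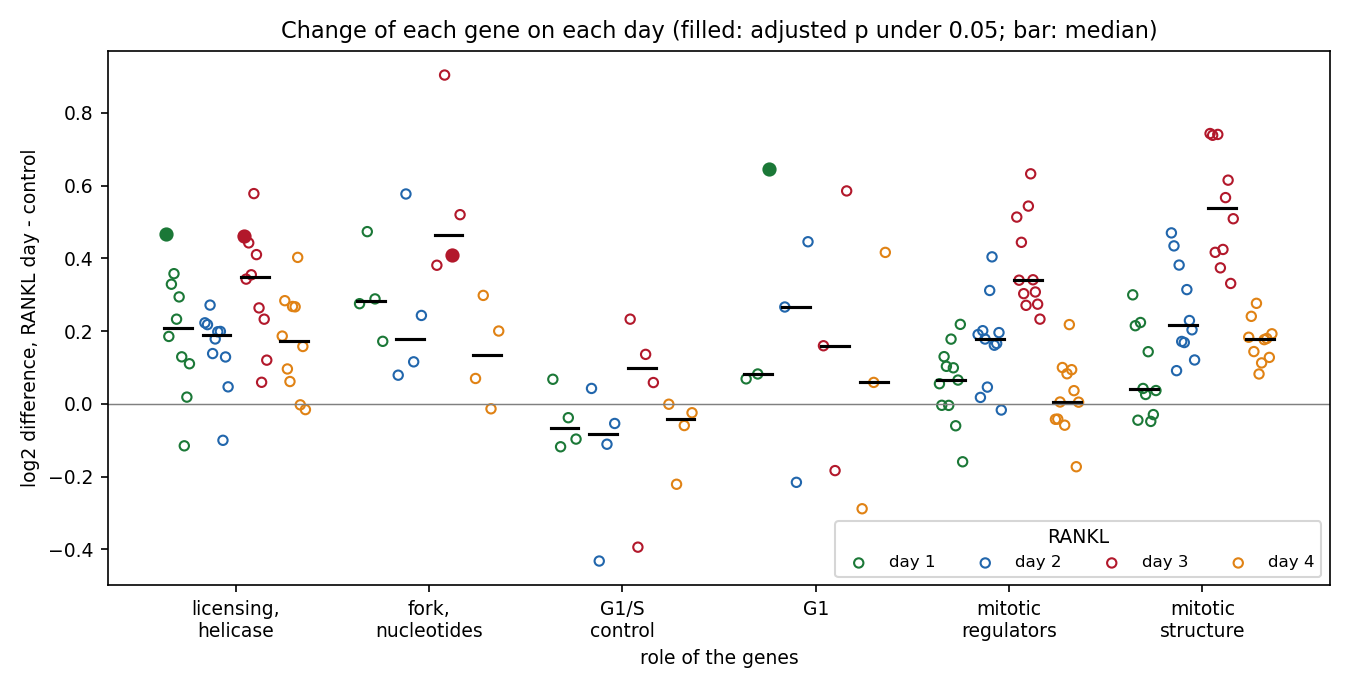
Points are the log2 differences from control of the 42 genes, by role list and by day, with the list median as a bar and called genes filled. The medians of the chromosome and spindle list are 0.04, 0.22, 0.54 and 0.18 on days 1 to 4, and those of the G1/S control list stay between -0.08 and 0.10.

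Averaged over each array, the gap between mitotic and S phase genes was within 1 SD of the arrays on every day. The mean of the 18 S phase genes differed from control by 0.17 ± 0.17, 0.11 ± 0.19, 0.31 ± 0.11 and 0.11 ± 0.12 on days 1 to 4 (SD, n = 3), with a control SD of 0.12. The mean of the 21 mitotic genes differed by 0.07 ± 0.34, 0.21 ± 0.41, 0.46 ± 0.22 and 0.09 ± 0.08, with a control SD of 0.11. Mitotic minus S phase was -0.10 ± 0.19, 0.10 ± 0.23, 0.15 ± 0.29 and -0.02 ± 0.04. On the 3 control arrays that gap varied with an SD of 0.01. As the members were chosen with results known, these means are descriptions and carry no test.

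Single arrays set much of the spread. On day 1 replicate 2 the mitotic mean was -0.27 and 3 of 21 mitotic genes were above the control mean, against 0.41 (21 of 21) and 0.07 (15 of 21) on replicates 1 and 3. On day 2 replicate 3 the mitotic mean was also -0.27 and 0 of 21 were above, against 0.46 and 0.44, both 21 of 21, on replicates 1 and 2. The S phase means of these 2 arrays were nearer to control, at -0.02 and -0.10. On day 3 all 3 arrays had 21 of 21 mitotic genes above the control mean, with mitotic means of 0.24, 0.47 and 0.67. The S phase order on day 3 was another, at 0.41, 0.20 and 0.31, so that replicate 1 was highest for S phase and lowest for mitosis. On day 4 both means stayed between -0.01 and 0.23. The mitotic mean of day 1, 0.07 over 3 arrays, was 0.24 without replicate 2 and -0.10 without replicate 1, where 5 of 21 mitotic genes had a difference above 0 in place of 14. Without control 1, 2 or 3 it was 0.13, 0.05 or 0.03. That of day 2, 0.21 over 3 arrays, was 0.45 without replicate 3, 0.09 without replicate 1 and 0.10 without replicate 2. Over the settings that leave out 1 array, the day 3 means were 0.35 to 0.57 for mitosis and 0.25 to 0.37 for S phase. The S phase mean was then 0.10 to 0.26 on day 1, 0.03 to 0.22 on day 2 and 0.05 to 0.18 on day 4, where the mitotic mean was 0.05 to 0.15.

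Markers of crypt and stem cells moved with these means on several arrays. The 18 measured crypt markers averaged 8.35 to 8.59 on the control arrays, 8.59 to 8.86 on day 1, 8.47 to 8.93 on day 2, 8.81 to 8.99 on day 3 and 8.76 to 8.84 on day 4. Relative to control that is 0.29 ± 0.14, 0.31 ± 0.25, 0.47 ± 0.10 and 0.35 ± 0.04 (SD, n = 3). The lowest RANKL arrays were again day 2 replicate 3 at 0.02 and day 1 replicate 2 at 0.13. On day 4 the crypt mean was 0.30 to 0.39 on every array, while the mitotic mean was 0.02 to 0.19. Of the 18 crypt markers 4, 4, 3 and 3 were called higher on days 1 to 4 and none was called lower. Of all genes, 3.94%, 2.57%, 2.96% and 0.908% were called in either direction. Those called higher were 2% on day 1 and 1.72% on day 3. Of the 4 calls of day 2, 2 were kept without day 2 replicate 1, day 2 replicate 2 or control 2, and of the 3 calls of day 4, 1 was kept without day 4 replicate 2 or control 2. Of the 3 calls of day 3, 2 were kept without day 3 replicate 3. Cd44, a surface glycoprotein, rose by 2.04, 1.30, 1.23 and 0.98. Its day 4 call was lost in 2 of the 15 settings that leave out 1 array (adjusted p up to 0.0619). Aqp4, a water channel, rose by 0.66, 1.39, 1.28 and 0.78. Msi1, an RNA-binding protein gene, rose by 0.95, 0.75 and 0.83 on days 1 to 3, and its day 2 and day 3 calls were kept in 12 and 14 of 15 such settings. Tnfrsf19, a TNF receptor family gene, rose by 0.36 on day 2 and 0.42 on day 4, calls kept in 2 and 4 of 15 such settings, and on day 2 the call was lost with the replicate block (adjusted p = 0.0597). Ascl2, a stem cell transcription factor, rose by 0.61 on day 1, a call kept in 11 of 15. Lgr5, the receptor that marks crypt base stem cells, was not called and differed by -0.31, -0.40, 0.18 and 0.20. None of the 18 had a control mean at the level of the Y genes. The part of crypt content in the cell cycle values was not tested.

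Other cell types moved differently. The 12 M cell markers averaged above control by 1.49 to 1.74, 2.25 to 2.41, 1.88 to 2.15 and 1.17 to 1.64 on the arrays of days 1 to 4. The 9 tuft markers differed by 0.01 to 0.20 on day 1 and 0.68 to 0.87 on day 4. The 12 enteroendocrine markers differed by -0.14 to 0.02 on day 1 and 0.43 to 0.63 on day 4. Of the tuft markers, 1 had a control mean at the level of the Y genes. The 22 villus enterocyte markers averaged 11.75 to 12.26 on controls, and their difference was 0.35 on day 1 replicate 2 against -0.40 and -0.14 on replicates 1 and 3. On day 2 they differed by 0.18, 0.09 and 0.13 on replicates 1 to 3, on day 3 by -0.29, 0.14 and -0.12, and on day 4 by 0.50, 0.40 and -0.15. On day 2 the lipid carrier gene Apoa4 rose by 0.71 and Nt5e, a nucleotidase gene, fell by 1.52, each kept in 10 of 15 settings without 1 array. On day 3 Mep1a, a brush border protease gene, fell by 0.99, kept in 8 of 15. The 7 Paneth cell markers were at -0.80 on day 2 replicate 3, against -0.04 and -0.02 on the other day 2 arrays. Of these 7, Lyz1, encoding lysozyme, fell by 0.44 on day 2 and Cd24a, a surface protein gene, rose by 0.75 on day 3, calls kept in 3 and 5 of 15 settings without 1 array. Both were lost with the replicate block, at adjusted p of 0.0641 and 0.0504. The 14 lymphocyte markers averaged 8.34 to 8.55 on controls and 8.02 to 8.63 with RANKL, and none was called on any day. None of the villus, Paneth or lymphocyte markers had a control mean at the level of the Y genes. The part of these cell types in the result was not tested.

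**Figure D4:**
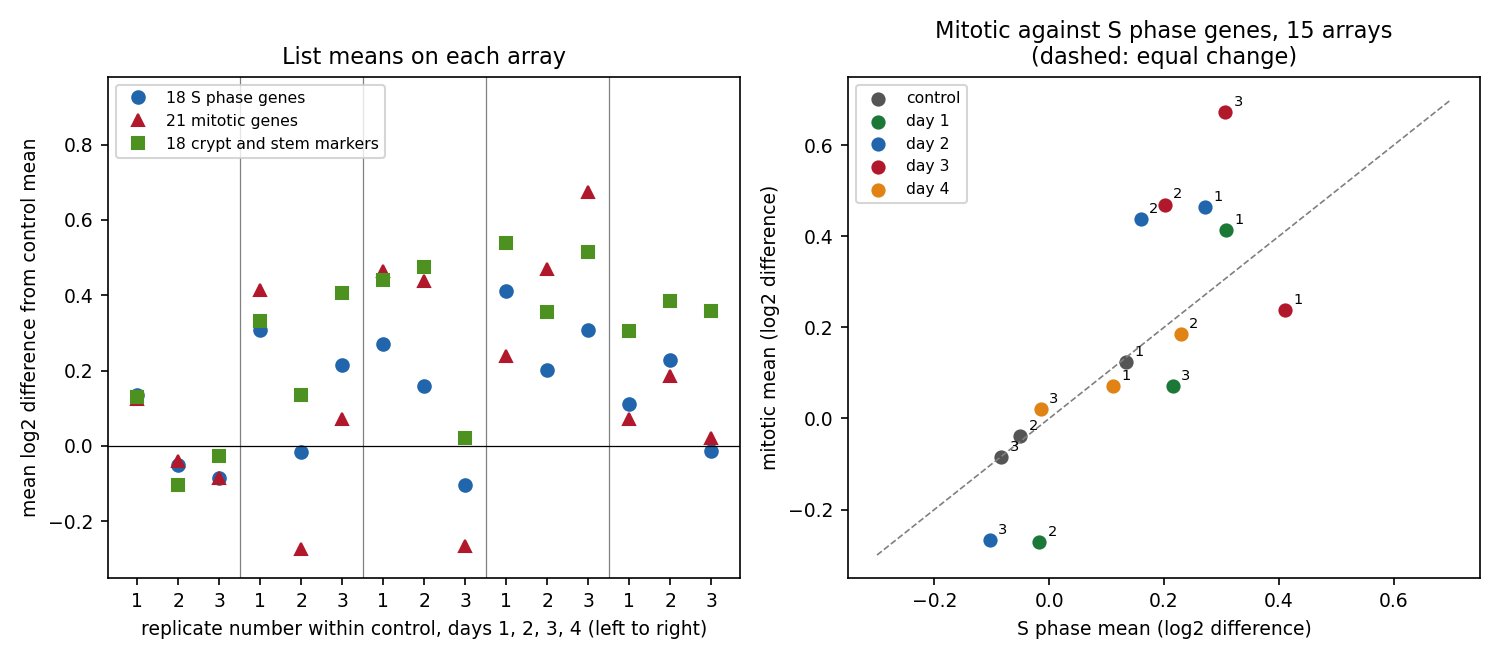
Left, mean log2 difference from control on each array for 18 S phase genes (circles), 21 mitotic genes (triangles) and 18 crypt and stem markers (squares); right, mitotic against S phase mean with 1 point per array, numbered by replicate. RANKL day 1 replicate 2 and day 2 replicate 3 sit at -0.27 for mitosis, and the 3 controls lie near the dashed line of equal change.

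Between days no member was called in any of 5 comparisons. Day 2 against day 1 called 0.201% of all genes, day 3 against day 2 called 0%, day 4 against day 3 called 0.015%, day 3 against day 1 called 0.351% and day 4 against day 1 called 1.32%. By limma's unadjusted p under 0.05 the members that passed numbered 1, 3, 10, 5 and 4 in that order. The shares of all genes just given are for adjusted p. The share at the unadjusted threshold was not counted, so an excess cannot be read from these numbers. From day 3 to day 4 all 21 mitotic genes had a difference below 0, but the smallest adjusted p of any member was 0.176, for Rrm2. The peak on day 3 is therefore a description of the means and was not shown by a test between neighbouring days.

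Further genes of replication and mitosis also had their highest median differences on day 3. Of 47 further replication genes, the differences had medians of 0.06, 0.07, 0.23 and 0.14 on days 1 to 4, and 44 were above 0 on day 3. Only Pold1, the catalytic subunit of DNA polymerase delta, was called, on day 1, where it rose by 0.55 ± 0.10 (limma, adjusted p = 0.00827). On that day 2% of all genes were called higher. The call of Pold1 held in all 15 settings without 1 array and was lost in 2 of 9 other settings. Of 64 further mitosis genes, the medians were 0.06, 0.17, 0.38 and 0.14, and 63 were above 0 on day 3. On day 3, 3 of them were called, all higher. Ect2, which positions the cleavage furrow, rose by 0.78 (limma, adjusted p = 0.0377). Ckap2, a microtubule-associated protein gene, rose by 0.54 (limma, adjusted p = 0.0372), and Cenph, a kinetochore gene, by 0.40 (adjusted p = 0.0377). Cenph had a control mean of 5.47, inside the range of the Y genes. Leaving out 1 array kept the calls of Ect2, Ckap2 and Cenph in 8, 5 and 6 of 15 settings, with adjusted p up to 0.171, 0.171 and 0.174. None of the 3 was kept without day 3 replicate 2, day 3 replicate 3, day 4 replicate 1, control 1 or control 2. All 3 calls were also lost with median centring (0.0831, 0.0527 and 0.119 for Ect2, Ckap2 and Cenph). Ckap2 was lost with the 2 groups alone (0.0524) and Cenph as deposited (0.0722). Of all genes, 1.72% were called higher on day 3.

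Cdk inhibitors, pocket proteins and genes linked to arrest had list medians at or slightly below 0. Their list mean was -0.11 to 0.11 on the control arrays relative to the control mean. It was -0.19 to -0.04 on the arrays of day 1 and -0.01 to 0.02 on those of day 4. The arrays of day 2 (-0.09 to -0.04) and day 3 (-0.11 to -0.08) lay within the control range. The 16 measured genes of this list include Mdm2, which is not itself a brake. Of the 16, 4, 4, 4 and 8 had a difference above 0 on days 1 to 4, with medians of -0.11, -0.11, -0.12 and -0.00. Cdkn1b, encoding the Cdk inhibitor p27, fell by 0.38 on day 2 (limma, adjusted p = 0.0494), a call kept in 3 of 15 settings without 1 array (adjusted p up to 0.201) and lost with the replicate block (0.0503). Of 28 other cyclin, Cdk and E2F genes, Cdk6 and Tfdp1 were called on day 1, where 2% of all genes were called higher. Cdk6, the other kinase partner of D cyclins, read 8.82, 8.66 and 8.75 in controls and 9.70, 9.56 and 9.64 on day 1. It rose by 0.89 ± 0.12 (limma, adjusted p = 0.00087), and this call held in all 15 settings without 1 array and in all 9 other settings. Tfdp1, the dimerization partner of E2F factors, rose by 0.29 on day 1 (limma, adjusted p = 0.0436) and by 0.31 on day 2 (adjusted p = 0.0373). Those calls of Tfdp1 were kept in 5 and 8 of 15 settings without 1 array, with adjusted p up to 0.158 and 0.165. They were kept in 3 and 4 of the 9 other settings, and were lost as deposited (0.361 and 0.183) and with median centring (0.635 and 0.35).

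**Figure D5:**
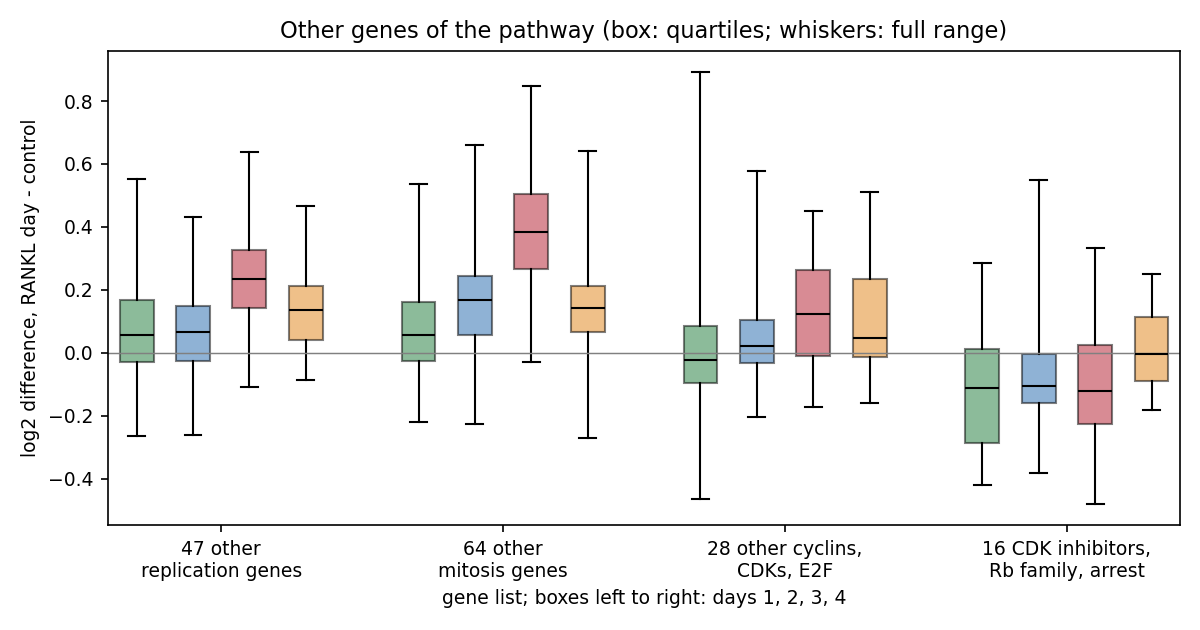
Log2 differences from control of the further pathway genes, by list, with boxes for days 1 to 4 from left to right; boxes span the quartiles, centre lines are medians and whiskers the full range. The medians of the 47 replication and 64 mitosis genes are highest on day 3, at 0.23 and 0.38. Those of the 16 Cdk inhibitors, pocket proteins and arrest genes lie at -0.12 to -0.00.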

How the data were processed

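Epithelial RNA was measured on 15 Affymetrix arrays, 3 in each of 5 groups named from the sample titles. The authors deposited 1 linear intensity value per probe set and array, 25.95 to 24106.7 over 28853 probe sets. Labelling used the Affymetrix WT kit, per the labels' protocols, and mm9 is the build in the submitters' processing notes. How probes were summarised, corrected for background and normalized is not given in the sources used here. The intensities were taken to log2, and as the array medians spanned 0.18 (limit 0.1) they were quantile normalized. Of the probe sets, 21789 had 1 gene symbol, 1621 several and 5443 none, which gave 19938 genes, each by its brightest probe set, and dim genes were kept.

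One model with 5 group means (10 residual and 3.49 prior degrees of freedom) was fitted with limma 3.58.1 in R 4.3.3. The 9 contrasts and an F test over the 4 days were two-sided, with Benjamini-Hochberg adjustment over all genes within each. Intervals are 95% and unadjusted. The number of arrays limits the precision. The method was tested on simulated data for day 1 against control, with genes drawn independently. Of added differences of 0.5, 68% were called, and of those of 1, 96%. Of the calls, 6.29% were false. Alternatives changed the scaling, added an offset of 16, dropped the dimmest 40% of genes, averaged probe sets, or used a trended robust prior, array weights, the replicate number as a block, the 2 groups alone, or all arrays but 1. Replicate numbers come from the sample titles. Same-numbered arrays deviated together from their group means, with all 3 correlations over 0.1, for day 2 with control (0.14 to 0.38), day 3 with control (0.12 to 0.37) and day 1 with day 2 (0.15 to 0.39), and not in the other 7 pairs of groups. The members and lists were chosen with earlier results of these data known. Values on every array are given for members called on any day, for Mki67, Pcna, Ccnd1 and Ccnd2, and for the member with the largest change of each role list; other lists name up to 4 called genes, and the uncalled Lgr5 was chosen after its values were seen. The RefSeq promoter table was searched for exact motif letters.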

Additional observations from a re-analysis of the deposited data

Results flagged for a closer look

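Aurkb, a kinase of the chromosomal passenger complex, and Ube2c, a ubiquitin-conjugating enzyme of mitotic exit, were on opposite sides of the control mean on days 3 and 4 in every array. Aurkb read 9.03, 8.97 and 9.05 on day 3 and 8.73, 8.73 and 8.60 on day 4, around a control mean of 8.74, so that it differed by 0.27 on day 3 and by -0.0585 on day 4. Ube2c read 9.54, 9.56 and 9.56 on day 3 and 9.19, 9.12 and 9.02 on day 4, around a control mean of 9.28, with differences of 0.27 and -0.17. On day 3 all arrays of Aurkb, but not all of Ube2c, lay above every control, and on day 4 neither gene lay below every control. The sign of the day 4 difference was not kept in every setting for either gene. Without control 1, all 21 mitotic genes had a day 4 difference above 0. The change between the days did not pass the test of day 4 against day 3 for Aurkb (limma, adjusted p = 0.770) or Ube2c (adjusted p = 0.991).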

How the results depend on the processing

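The number of members called depended on the processing. On day 1 the 2 calls became 0 as deposited, 0 with median centring and 0 with the 2 groups alone, and ranged from 0 to 2 without 1 array. Of all 19938 genes, 785 were called on day 1 in the main fit. That number was 583 as deposited, 480 with median centring and 269 with the 2 groups alone. On day 2 the count of 0 became 2 with array weights (Rrm1 and Cdk4), and 0 to 2 without 1 array, with 2 (Cdk4 and Mki67) without day 2 replicate 3. Of all genes, 513 were called on day 2 in the main fit, 930 with array weights and 437 without day 2 replicate 3. On day 3 the 2 calls became 0 with median centring, 4 without the dimmest 40% of genes, 12 with array weights, 4 with the replicate block and 7 with the 2 groups alone. Of all genes, 590 were called on day 3 in the main fit. In the order of these settings that number was 257, 661 of 11963, 1322, 712 and 524. Without 1 array the day 3 count ranged from 0 to 6: 0 without day 3 replicate 3 or any control, 1 without day 3 replicate 1, and 6 without day 1 replicate 2 or without day 2 replicate 3. All genes called on day 3 numbered 236 without day 3 replicate 3 and 384, 355 and 270 without control 1, 2 and 3. They numbered 480 without day 3 replicate 1, 1189 without day 1 replicate 2 and 663 without day 2 replicate 3. On day 4 the count of 0 became 1 (Cdc6) with the replicate block and 0 to 1 without 1 array. Of all genes, 216 were called on day 4 with the block and 181 in the main fit. With array weights, 1 member was called on day 4 against day 3, 1 on day 3 against day 1 and 2 on day 4 against day 1, where leaving out 1 array gave 0 to 1. In the same order array weights called 228, 547 and 1389 of all genes, against 3, 70 and 263 in the main fit. The weights stopped short of their convergence tolerance. The cause was not tested. The numbers paired days 2 and 3 with control, but not days 1 and 4 with control. Over all 30 same-numbered pairs the correlation had a median of 0.14 (19 over 0.1), against -0.07 for 60 other pairs (12 over 0.1). The block changed no other count of members called by over 1.5 times.

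Over the 42 members and 4 days, 55 of 168 differences from control changed sign in at least 1 setting: 23, 12, 4 and 16 on days 1 to 4. Those differences were at most 0.19 in size (Ccna2 on day 2). Among the 12 genes given array by array there were 7. Rrm2 on day 4 (-0.0135) became 0.0184 as deposited, 0.0554 with median centring and 0.00497 with array weights, and ranged from -0.0618 to 0.0789 without 1 array. Leaving out 1 array, Pcna on day 2 ranged from -0.0233 to 0.222, Ccnd1 on day 1 from -0.0987 to 0.221 and on day 3 from -0.00758 to 0.312, Ccnd2 on day 4 from -0.00415 to 0.123, and Bub1 on day 1 from -0.136 to 0.432. Ccnd1 on day 1 became -0.0169 as deposited and -0.0636 with median centring, and Ccnd2 on day 1 became -0.0456 with median centring. The S phase and mitotic means moved by less than 1 SD between arrays in the 9 other settings. Leaving out 1 of 3 arrays can shift a group mean by only part of the group SD. That limit therefore says little about the settings without 1 array, where the mitotic mean of day 1 ranged from -0.10 to 0.24. The counts of members above all controls, 4, 2, 23 and 9, were 4, 3, 27 and 10 as deposited and 3, 3, 31 and 11 with median centring, alternatives chosen after seeing the data.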
